A study of Mus musculus with 36 samples.

Results

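The comparison described here set 4 mac-TFEB libraries against 4 Cre-neg libraries of CCR2-positive cardiac macrophages, all of the TFEB-TG genotype, which is 8 of the 36 RNA-seq libraries of the series. The libraries were taken by their labels (TFEB-TG, CCR2pos, and mac-TFEB or Cre-neg) and paired by the number in the label, 1 to 4. TFEB-TG mice carried Cx3cr1-er-Cre, a tamoxifen-dependent Cre recombinase driven by the Cx3cr1 gene, a Td-Tomato reporter behind a stop sequence that Cre removes, and a TFEB cassette behind such a stop (TFEB-LoxP-STOP). Both groups came from hearts treated alike, with tamoxifen for 7 days, then 90 min of ischemia, and cells sorted 7 days after it. The series' design text describes mac-TFEB samples as expressing Cre and Cre-neg samples as lacking it. The protocol in the labels lists Cx3cr1-er-Cre for controls as well, so how Cre-neg cells were told apart is unknown here. Further groups serve for comparison and were treated the same way: CX3CR1-Cre and Cre-neg libraries of CCR2pos cells from TFEB-wt mice, which carried no cassette (5 libraries each), and mac-TFEB and Cre-neg libraries of the CCR2neg fraction of TFEB-TG mice (4 each). The labels give neither age nor sex of the mice, and they do not tie each library to its own mouse, so a p-value here weighs a difference only against the spread among these libraries, part of which may be technical.

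TFEB is a basic helix-loop-helix transcription factor of the MiT/TFE family. When the kinase complex mTORC1 is inactive at the lysosome, TFEB moves to the nucleus and binds E-box elements with the core CACGTG in promoters of lysosome and autophagy genes. CCR2 is the receptor for the chemokine CCL2, by which Ly6C-high monocytes leave the bone marrow, and CCR2-positive macrophages of the injured heart derive largely from such monocytes. As monocytes become macrophages they lose Ly6C and other monocyte transcripts, and Cx3cr1, which drives the Cre, encodes the fractalkine receptor that monocytes and many macrophages carry.

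The 8 libraries held 15644232 to 21943902 counts and 12666 to 12757 of the 12795 genes in the table were detected in each. Mitochondrial genes took 0.537 to 0.886% of the counts. All 8 carried the defining macrophage transcripts at high levels, with Csf1r at 2229 to 3032, Adgre1 at 2853 to 3399, Cd68 at 1988 to 2283 and Cd14 at 6792 to 9652 CPM (counts scaled to a common library size). Both libraries of number 2 stood apart by T cell transcripts. Together 6 such genes (Cd3d, Cd3e, Cd3g, Trac, Trbc2 and Lck) reached 186 CPM in mac-TFEB library 2 and 130 CPM in Cre-neg library 2, against 5.20 to 8.07 CPM in the other mac-TFEB libraries and 3.95 to 9.73 CPM in the other Cre-neg libraries. For that reason the called genes were also fitted without number 2. Below, called means an adjusted p under 0.05 in edgeR's quasi-likelihood test with the label number as a block, Benjamini-Hochberg adjusted over 12795 genes, and every adjusted p is of this kind. Changes are log2 fold changes of mac-TFEB over Cre-neg ± standard error.

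Tfeb (ENSMUSG00000023990, chromosome 17, 47737030 to 47792419, GRCm38) was higher in mac-TFEB cells. Its level was 225, 280, 60.4 and 68.2 CPM in mac-TFEB libraries 1 to 4, against 51.0, 50.5, 34.6 and 19.1 CPM in Cre-neg libraries 1 to 4. The groups did not overlap, but mac-TFEB libraries 1 and 2 stood well above 3 and 4, and the log2 difference within a pair was 2.14, 2.47, 0.80 and 1.83. The fitted change was 1.85 ± 0.25 (3.60-fold, adjusted p = 0.000322). Tfeb in the Cre-neg comparator was itself above the levels of mice without the cassette: the lowest TFEB-TG CCR2pos Cre-neg library had 19.1 CPM, while TFEB-wt CCR2pos libraries reached at most 11.5 CPM with CX3CR1-Cre and 7.17 CPM in Cre-neg. The counts do not say from which copy of Tfeb a read came. Cx3cr1 averaged 387 ± 26.2 CPM in mac-TFEB and 352 ± 39.1 CPM in Cre-neg libraries (SD, n = 4 each) and did not pass the test (0.14 ± 0.11, adjusted p = 0.998). It was called higher with CX3CR1-Cre in TFEB-wt CCR2pos cells (0.62 ± 0.10, adjusted p = 0.00108). In mac-TFEB cells of the TFEB-TG CCR2neg fraction it was called higher as well (0.59 ± 0.11, adjusted p = 0.00213). The difference between its CCR2pos changes in TFEB-TG and TFEB-wt did not pass the test (-0.47 ± 0.15). Ccr2, the gene behind the sort, had 302, 865, 705 and 734 CPM in mac-TFEB libraries 1 to 4 and 475, 1231, 782 and 983 CPM in Cre-neg libraries 1 to 4. It lay lower in mac-TFEB in every pair and did not pass the test (-0.43 ± 0.24, adjusted p = 0.998).

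Of the 12795 genes 26 were called, which is 0.203% of those tested. Of these, 9 rose in mac-TFEB cells (0.0703%) and 17 fell (0.133%). All 26 moved the same way in all 4 pairs, and in 15 of them the groups did not overlap (252 of all genes, or 1.97%, had groups that did not overlap). The test is blocked on the same numbers and favours genes that agree across pairs, so this agreement is no separate support for the calls. The count rests on pairing and on number 2. Without the block for the label number 2 genes rose and 0 fell. Leaving out mac-TFEB library 2 left 2 genes lower, leaving out Cre-neg library 2 left 5 higher and 4 lower, and leaving out both left 5 higher and 0 lower. Without number 2 all 26 genes kept their direction, and the fitted log2 changes were 85.3 to 112.7% of those from all libraries for the 9 that rose and 79.5 to 108.4% for the 17 that fell. The adjusted p-values of those 17 then lay between 0.0586 and 0.615. Since all 4 pairs already agreed for each of the 26, leaving out a pair could hardly turn a direction. The kept direction is therefore no separate support. The lower count was 8 or 9 without mac-TFEB library 1, Cre-neg library 1 or Cre-neg library 4, and 10 without mac-TFEB library 3 or 4. Duoxa2, Tfeb, Cadm1, Cd4, Ctnnd2, Mefv and Cd209f were called whichever single library was left out, and the other 19 lost the call in at least 1 of the 8 such fits. DESeq2's Wald test called all 26 among its 40, and a fit to these 8 libraries alone called all 26 among its 116.

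**Figure D1:**
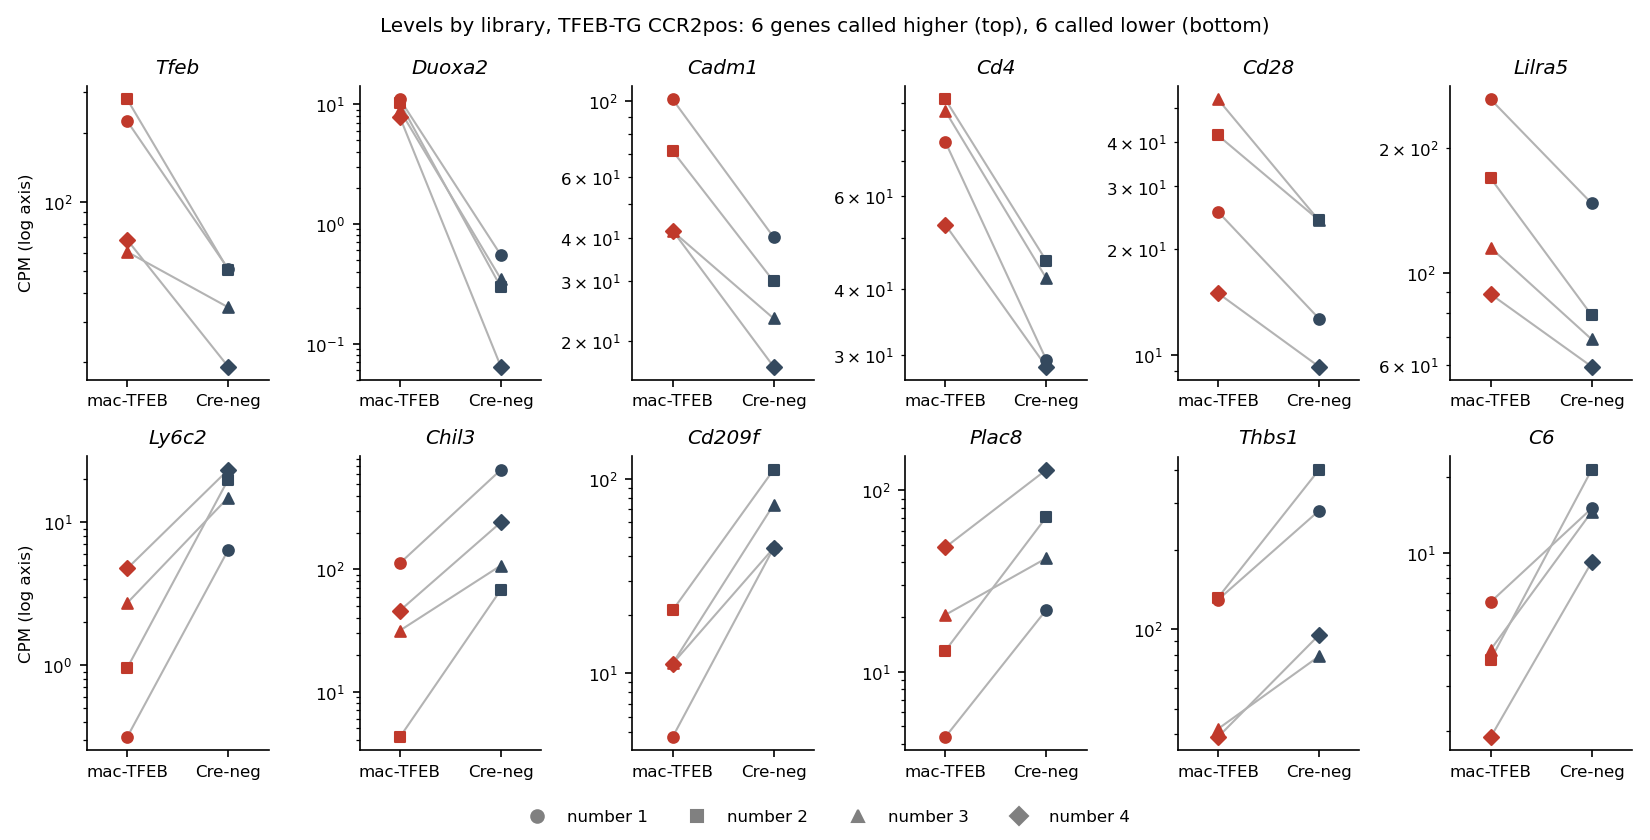
CPM on a log axis in each of the 8 TFEB-TG CCR2pos libraries, mac-TFEB on the left and Cre-neg on the right of each panel, for 6 genes that rose (top row) and 6 that fell (bottom row); marker shapes give the label number and grey lines join libraries of 1 number. Every line falls from left to right in the top row and climbs in the bottom row, and for Tfeb the mac-TFEB libraries 1 and 2 (225 and 280 CPM) stand above 3 and 4 (60.4 and 68.2 CPM).

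The gene with the largest increase was Duoxa2, which encodes the maturation factor of the hydrogen peroxide generating oxidase DUOX2. It was found at 10.9, 10.2, 8.88 and 7.77 CPM in mac-TFEB libraries 1 to 4 and at 0.550, 0.297, 0.347 and 0.0645 CPM in Cre-neg libraries 1 to 4. No Cre-neg library came near any mac-TFEB library, and the change was 4.86 ± 0.52 (29.1-fold, adjusted p = 5.26e-06). Levels were alike in the other groups: Duoxa2 averaged 10.6 ± 1.63 CPM with CX3CR1-Cre and 0.465 ± 0.435 CPM in Cre-neg cells of TFEB-wt CCR2pos libraries (SD, n = 5 each), and 10.3 ± 0.557 CPM in mac-TFEB and 0.524 ± 0.174 CPM in Cre-neg cells of the TFEB-TG CCR2neg fraction (SD, n = 4 each). Exons of Duoxa1 on the other strand overlap 42.8% of its exon bases (chromosome 2, 122298900 to 122302885), and since the reads carry no strand the counts of that stretch cannot be assigned to one of them. Ctnnd2, which encodes the adherens junction protein delta-catenin, had 10.2, 11.9, 8.27 and 7.21 CPM in mac-TFEB libraries 1 to 4, all above the 2.15, 4.09, 1.64 and 1.74 CPM of Cre-neg libraries 1 to 4 (1.98 ± 0.32, adjusted p = 0.00225). H2-M2, a non-classical MHC class I gene, had 7.12, 5.42, 2.52 and 0.782 CPM in mac-TFEB libraries 1 to 4 and 0.400, 0.653, 0.694 and 0.322 CPM in Cre-neg libraries 1 to 4 (2.86 ± 0.62, adjusted p = 0.0439). Mac-TFEB library 4 exceeded the highest Cre-neg library only narrowly. Klrb1b, an inhibitory lectin-like receptor known from natural killer cells, ranged from 3.23 to 8.56 CPM in mac-TFEB and from 1.14 to 3.40 CPM in Cre-neg libraries, so the groups overlapped (1.56 ± 0.32, adjusted p = 0.0285). It shares 27.2% of its 50-base windows with Gm44511, Klrb1a and Klrb1c. Duoxa2, Ctnnd2, H2-M2 and Klrb1b lie at low levels and were named after their values were seen.

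Among genes at higher levels, Cadm1, an adhesion molecule of the immunoglobulin superfamily that XCR1-positive dendritic cells also carry, rose in mac-TFEB cells. It was at 101, 71.5, 41.8 and 42.0 CPM in mac-TFEB libraries 1 to 4 and at 40.2, 29.9, 23.3 and 16.9 CPM in Cre-neg libraries 1 to 4. The groups did not overlap, with Cre-neg library 1 just under mac-TFEB libraries 3 and 4 (1.18 ± 0.17, adjusted p = 0.000455). Lilra5, whose human counterpart is an activating receptor of monocytes, had 262, 169, 115 and 89.0 CPM in mac-TFEB libraries 1 to 4, against 147, 79.2, 69.3 and 59.6 CPM in Cre-neg libraries 1 to 4. Each pair differed in the same direction while the groups overlapped, because both libraries of number 1 were the highest of their group (0.81 ± 0.14, adjusted p = 0.00565).

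Lilra5 was the only called gene whose promoter window held one of the 3 E-box forms searched, and its window is shown for that reason. The sequence is RefSeq's (GRCm38.p6, chr7:4237504-4237803, plus strand, 250 bases before to 50 after the start), with TCATGTGA in capitals from base 136 of the window.
Lilra5: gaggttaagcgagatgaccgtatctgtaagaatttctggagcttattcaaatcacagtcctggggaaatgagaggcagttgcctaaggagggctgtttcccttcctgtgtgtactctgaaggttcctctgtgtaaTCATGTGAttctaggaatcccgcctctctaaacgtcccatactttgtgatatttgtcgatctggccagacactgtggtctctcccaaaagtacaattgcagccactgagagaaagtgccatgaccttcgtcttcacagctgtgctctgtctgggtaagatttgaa
RefSeq promoter windows were at hand for 6 of the 9 genes that rose, 13 of the 17 that fell and 9766 genes of the table. CACGTG, on either strand, was in none of the 6, none of the 13 and 11.8% of the 9766. TCACGTGA, which contains CACGTG, was in none of the 6, none of the 13 and 2.22% of the 9766. TCATGTGA was in 1 of the 6, none of the 13 and 0.983% of the 9766. These are letter matches in 300 bases and carry no test.

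Both Cd4, the co-receptor of helper T cells that some dendritic cells also carry, and Cd28, the co-stimulatory receptor of T cells, rose in mac-TFEB cells. Cd4 was at 76.0, 91.4, 86.9 and 53.0 CPM in mac-TFEB libraries 1 to 4 and at 29.4, 45.3, 42.0 and 28.6 CPM in Cre-neg libraries 1 to 4. The groups did not overlap (1.09 ± 0.17, adjusted p = 0.00118). Cd28 was at 25.4, 41.9, 52.9 and 14.97 CPM in mac-TFEB libraries 1 to 4, against 12.7, 24.1, 24.1 and 9.28 CPM in Cre-neg libraries 1 to 4. Every pair differed in the same direction and the groups overlapped through mac-TFEB library 4 (0.93 ± 0.20, adjusted p = 0.0364). These 2 were the only called members of the T and NK cell list, of which 14 of 15 genes were measured, where 0.0703% of all genes were called higher. Genes of the T cell receptor complex were high in number 2 of both groups. The T cell receptor chain gene Trbc2 was at 51.2 CPM in mac-TFEB library 2 and 31.98 CPM in Cre-neg library 2, and at 0.04996 to 0.773 CPM in the other 6 libraries. Cd3e, a chain of the T cell receptor complex, was at 28.6 CPM in mac-TFEB library 2 and 22.1 CPM in Cre-neg library 2, and at most 1.26 CPM in the other mac-TFEB and 1.68 CPM in the other Cre-neg libraries. Cd8a was at 0 in mac-TFEB libraries 1 and 4 and in Cre-neg library 1. Without number 2 Cd4 remained called (1.12 ± 0.20, adjusted p = 0.0136), while Cd28 had a like change and was not called (0.98 ± 0.23, adjusted p = 0.213). The summed list was 140, 352, 181 and 94.3 CPM in mac-TFEB libraries 1 to 4 and 64.8, 227, 102 and 66.5 CPM in Cre-neg libraries 1 to 4, Cd4 and Cd28 included.

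**Figure D2:**
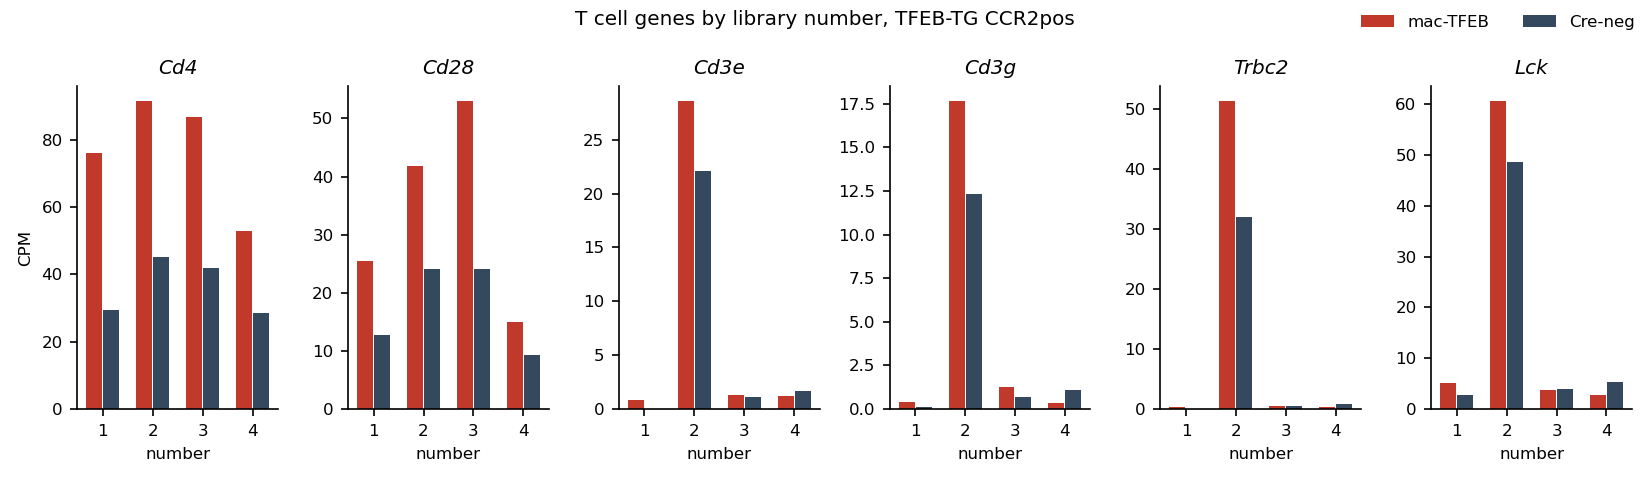
CPM of 6 T cell genes by label number, with the mac-TFEB bar left of the Cre-neg bar for each number. Cd4 and Cd28 are higher in mac-TFEB at every number, whereas Cd3e, Cd3g, Trbc2 and Lck are high in both libraries of number 2 (Trbc2 at 51.2 CPM in mac-TFEB and 31.98 CPM in Cre-neg) and low elsewhere.

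Of the lists, that of monocyte transcripts held the most of the genes that fell. Of the 26 genes of the monocyte and monocyte-derived list, all measured, 5 fell and none rose, against 0.133% of all genes called lower, and 25 of the 26 had a change below 0. The list's median change was -0.68, against -0.0006 over all genes. Its summed level was lower in mac-TFEB in each pair, at 2594, 3907, 3865 and 4343 CPM in mac-TFEB libraries 1 to 4 and 4167, 5345, 4553 and 5844 CPM in Cre-neg libraries 1 to 4. The list lay lower with Cre in the other comparisons too. With CX3CR1-Cre in TFEB-wt CCR2pos cells its median was -0.87, with 8 called lower and 1 higher (0.399% and 0.649% of all genes). In mac-TFEB cells of the TFEB-TG CCR2neg fraction its median was -0.64, with 8 called lower and 0 higher (1.13% and 1.23% of all genes). In bulk samples, fewer cells of a type and less of its RNA per cell cannot be told apart. Without number 2 none of the 5 was called, and the changes were -2.74 ± 0.64 for Ly6c2, -2.23 ± 0.48 for Chil3, -1.52 ± 0.36 for Plac8, -1.10 ± 0.28 for Thbs1 and -0.69 ± 0.18 for Ms4a4c (adjusted p between 0.116 and 0.343).

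Ly6c2, which encodes the Ly6C antigen of classical monocytes, showed the largest decrease. It was at 0.314, 0.956, 2.72 and 4.75 CPM in mac-TFEB libraries 1 to 4 and at 6.40, 19.9, 14.9 and 23.3 CPM in Cre-neg libraries 1 to 4. The groups did not overlap (-3.14 ± 0.56, adjusted p = 0.00565), and 14.5% of its 50-base windows occur in other genes, Ly6c1 first. Chil3, which encodes the chitinase-like protein Ym1, was at 113, 4.24, 31.6 and 46.0 CPM in mac-TFEB libraries 1 to 4, against 654, 68.2, 108 and 243 CPM in Cre-neg libraries 1 to 4. Its level varied more between numbers than between groups, and each pair still differed in the same direction (-2.71 ± 0.46, adjusted p = 0.0041). Chil3 shares 26.9% of its windows with Chil4 and Gm6522. Plac8, a gene abundant in Ly6C-high monocytes, had 4.35, 13.03, 20.5 and 48.5 CPM in mac-TFEB libraries 1 to 4 and 21.9, 71.1, 42.2 and 130 CPM in Cre-neg libraries 1 to 4 (-1.78 ± 0.32, adjusted p = 0.00565). Thbs1, which encodes the matricellular protein thrombospondin 1, ranged from 39.1 to 132 CPM in mac-TFEB and from 79.0 to 401 CPM in Cre-neg libraries (-1.23 ± 0.24, adjusted p = 0.0176). Ms4a4c, of the MS4A membrane protein family, ranged from 71.6 to 128 CPM in mac-TFEB and from 118 to 222 CPM in Cre-neg libraries (-0.84 ± 0.16, adjusted p = 0.00957). For the last 3 the groups overlapped while every pair moved one way.

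A further 10 members of the list had an unadjusted p under 0.05 and lay lower in mac-TFEB, which makes 15 of 26, against 2.48% of all genes. Examples are the haemoglobin scavenger Hp at -1.45 ± 0.39 (adjusted p = 0.218), the coagulation factor gene F10 at -1.28 ± 0.30 (adjusted p = 0.0732) and the matrix proteoglycan Vcan at -1.80 ± 0.55 (adjusted p = 0.446), none of which passed the test. Hp was at 5.39, 17.6, 27.8 and 43.0 CPM in mac-TFEB libraries 1 to 4 and at 23.8, 54.0, 49.4 and 130 CPM in Cre-neg libraries 1 to 4. The member with a change above 0 was Spn (0.10 ± 0.13).

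Cd209f and Cd209g, neighbouring genes of the C-type lectin family to which human DC-SIGN belongs, fell by like amounts. Cd209f (chromosome 8, 4102787 to 4105835) was at 4.71, 21.1, 11.3 and 11.2 CPM in mac-TFEB libraries 1 to 4 and at 44.0, 111, 73.4 and 44.0 CPM in Cre-neg libraries 1 to 4 (-2.58 ± 0.43, adjusted p = 0.00354). Cd209g (chromosome 8, 4134098 to 4137707) was at 1.78, 4.60, 4.19 and 3.41 CPM in mac-TFEB libraries 1 to 4 and at 13.2, 32.4, 24.6 and 15.02 CPM in Cre-neg libraries 1 to 4 (-2.63 ± 0.47, adjusted p = 0.00565). In neither did the groups overlap, and number 2 was the highest of each group for both genes. Without it the changes were -2.63 ± 0.52 for Cd209f (adjusted p = 0.0586) and -2.54 ± 0.55 for Cd209g (adjusted p = 0.116), neither of which was called. Their transcripts share 29.8% of the 50-base windows of Cd209f and 16.6% of those of Cd209g, so the 2 counts are not fully separate. Cd209a, listed with dendritic cell markers, did not follow them, with 141, 134, 77.0 and 49.5 CPM in mac-TFEB libraries 1 to 4, 78.7, 94.1, 19.99 and 10.8 CPM in Cre-neg libraries 1 to 4, and a change of 1.29 ± 0.38 that did not pass the test (adjusted p = 0.38).

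The promoter windows of Cd209f and Cd209g are printed because the genes moved together. They are RefSeq's (GRCm38.p6), Cd209f at chr8:4105715-4106014 on the minus strand and Cd209g at chr8:4134486-4134785 on the plus strand, each running 5′ to 3′, with the bases that differ in a global alignment, or have no partner in it, in capitals.
Cd209f: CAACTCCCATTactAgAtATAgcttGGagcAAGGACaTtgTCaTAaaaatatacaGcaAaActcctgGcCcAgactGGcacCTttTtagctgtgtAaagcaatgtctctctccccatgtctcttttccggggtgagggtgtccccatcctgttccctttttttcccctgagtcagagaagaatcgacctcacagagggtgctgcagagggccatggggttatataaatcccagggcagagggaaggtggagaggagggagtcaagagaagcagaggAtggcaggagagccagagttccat
Cd209g: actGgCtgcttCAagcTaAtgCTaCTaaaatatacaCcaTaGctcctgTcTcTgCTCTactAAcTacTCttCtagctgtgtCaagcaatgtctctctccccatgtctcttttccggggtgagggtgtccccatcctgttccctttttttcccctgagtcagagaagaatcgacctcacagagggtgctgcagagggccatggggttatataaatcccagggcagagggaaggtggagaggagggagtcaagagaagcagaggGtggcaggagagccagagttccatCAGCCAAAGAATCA
Of the 300 bases of each, 281 could be aligned and 258 were identical, 180 of them in 1 unbroken run that includes the stretch nearest the start. The Cd209g window lies inside the gene as GENCODE places it (4134098 to 4137707), so RefSeq and GENCODE put its start at different bases.

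A further 10 genes fell, and none of the 10 was called without number 2. C6, a terminal complement component, was at 6.44, 3.83, 4.19 and 1.90 CPM in mac-TFEB libraries 1 to 4 and at 14.99, 21.2, 14.5 and 9.22 CPM in Cre-neg libraries 1 to 4, without overlap (-1.85 ± 0.34, adjusted p = 0.00921). Nt5e, the ectonucleotidase CD73 that makes adenosine from AMP, ranged from 3.51 to 6.96 CPM in mac-TFEB and from 12.2 to 28.4 CPM in Cre-neg libraries (-1.84 ± 0.35, adjusted p = 0.0121). Nrg1, which encodes the ErbB ligand neuregulin, ranged from 1.62 to 5.48 CPM in mac-TFEB and from 6.80 to 19.9 CPM in Cre-neg libraries (-1.70 ± 0.37, adjusted p = 0.0432). Mefv, which encodes the inflammasome sensor pyrin, was at 23.7, 23.3, 39.5 and 43.5 CPM in mac-TFEB libraries 1 to 4 and at 39.5, 64.1, 60.5 and 77.5 CPM in Cre-neg libraries 1 to 4, lower in each pair with groups that overlapped (-0.91 ± 0.14, adjusted p = 0.00198). Smaller decreases were those of Slc11a1, the phagosomal metal transporter NRAMP1 (-0.40 ± 0.09), of Thbd, the anticoagulant receptor thrombomodulin (-0.47 ± 0.10), of Cyp4f18, a fatty acid hydroxylase that inactivates a leukotriene (-0.55 ± 0.12), and of Gpr141, an orphan receptor (-0.97 ± 0.21). Slc11a1 was the most abundant gene that fell, at 487 to 560 CPM in mac-TFEB and 634 to 722 CPM in Cre-neg libraries, with no overlap. Thbd, Slc11a1, Cyp4f18, Nrg1 and Gpr141 had adjusted p-values between 0.0432 and 0.0439 and lost the call in 6 to 8 of the 8 fits that left out 1 library. The unnamed gene models Gm5150 (-0.95 ± 0.19) and Gm9733 (-1.99 ± 0.41) fell as well and were named after their values were seen.

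Few genes of any kind were called, 0.203% of all tested, and the lists of pathways TFEB is known for are read against that share. None of the 47 lysosomal hydrolase genes, none of the 37 genes of the lysosomal membrane and the proton pump (v-ATPase) and none of the 43 autophagy genes was called, which is near that share and is no result about these lists, and their median changes were -0.03, -0.06 and -0.02. The summed level of the hydrolase genes was 66440 to 78130 CPM in mac-TFEB and 64910 to 75960 CPM in Cre-neg libraries. At an unadjusted p under 0.05, 1 hydrolase gene lay higher and 3 lower in mac-TFEB, 1 membrane or pump gene higher and 4 lower, and 0 autophagy genes higher and 1 lower, against 2.44% higher and 2.48% lower of all genes. The 3 hydrolase genes and the 2 membrane or pump genes with the smallest p-values were as follows. Dnase2a, which encodes a lysosomal deoxyribonuclease, changed by -0.20 ± 0.07 (adjusted p = 0.684). Atp6v0d2, a macrophage subunit of the proton pump, changed by 0.56 ± 0.20 (adjusted p = 0.642), the protease gene Ctsf by 0.47 ± 0.17 (adjusted p = 0.685), the protease gene Ctsl by -0.26 ± 0.10 (adjusted p = 0.746) and the lysosomal chloride transporter subunit Ostm1 by -0.34 ± 0.11 (adjusted p = 0.546). Atp6v0d2 was higher in mac-TFEB in all 4 pairs, at 41.7, 53.7, 108 and 46.9 CPM in mac-TFEB libraries 1 to 4 and 23.98, 31.4, 98.99 and 32.03 CPM in Cre-neg libraries 1 to 4. Tfeb was the only called gene of the 32 measured in the TFE family and mTORC1 control list. A p that misses the threshold does not show that these genes were alike in both groups. The median standard error over all genes was 0.18.

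Proliferation genes lay higher in mac-TFEB without a call. Of the 30 genes 28 had a change above 0, 12 had an unadjusted p under 0.05 in that direction (2.44% of all genes), and the median change was 0.28. The list summed to 946, 721, 1118 and 1370 CPM in mac-TFEB libraries 1 to 4 and to 849, 660, 861 and 1065 CPM in Cre-neg libraries 1 to 4, higher in every pair. Cdk1, the mitotic kinase, was at 29.01, 18.4, 34.7 and 41.8 CPM in mac-TFEB libraries 1 to 4 and at 15.5, 15.5, 25.1 and 28.9 CPM in Cre-neg libraries 1 to 4 (0.54 ± 0.15, adjusted p = 0.291). The mitotic kinesin gene Kif20a changed by 0.60 ± 0.16 (adjusted p = 0.178). The list lay higher in the other comparisons too. With CX3CR1-Cre in TFEB-wt CCR2pos cells 30 of the 30 genes were above 0 and the median was 0.35. There 3 were called higher, against 0.649% of all genes. In mac-TFEB cells of the TFEB-TG CCR2neg fraction 29 were above 0 and the median was 0.42. Here 4 were called higher, against 1.23% of all genes.

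In the other lists 0 or 1 gene was called, and with 0.203% of all genes called a count of 0 is near the share over all genes. MHC class II presentation had 0 of 11 called and 10 with a change above 0 (median 0.10), led by the peptide loading modulator genes H2-Oa (0.77 ± 0.26, adjusted p = 0.575) and H2-Ob (0.43 ± 0.16, adjusted p = 0.791). Interferon response genes had 0 of 30 called and 27 with a change below 0 (median -0.10). Among lipid genes Spp1, which encodes osteopontin, was lower in all 4 pairs, at 676, 689, 2656 and 890 CPM in mac-TFEB libraries 1 to 4 and 1161, 1166, 4999 and 1693 CPM in Cre-neg libraries 1 to 4 (-0.84 ± 0.19, adjusted p = 0.0701, not called). The transcription regulator gene Id2, from the list of macrophage lineage factors, lay higher in all 4 pairs (0.34 ± 0.08, adjusted p = 0.0701, not called). Il1b, the inflammatory cytokine, lay lower in all 4 pairs (-0.49 ± 0.15, adjusted p = 0.417, not called). Resident cardiac macrophage genes had 0 of 20 called, 9 changes above and 11 below 0, and a median of -0.06. The marker genes Lyve1 (-0.50 ± 0.20), Timd4 (-0.75 ± 0.30) and Vsig4 (-0.73 ± 0.27) were each lower in all 4 pairs without a call. Mgl2 of the same list lay higher in mac-TFEB (0.42 ± 0.16), also without a call. Chil3 was the 1 called gene of 20 in the alternative activation list and C6 the 1 of 29 in the efferocytosis and complement list. Lists of lipid, cytokine, repair, glycolysis, oxidative phosphorylation, antioxidant, lineage and dissociation response genes held no called gene.

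**Figure D3:**
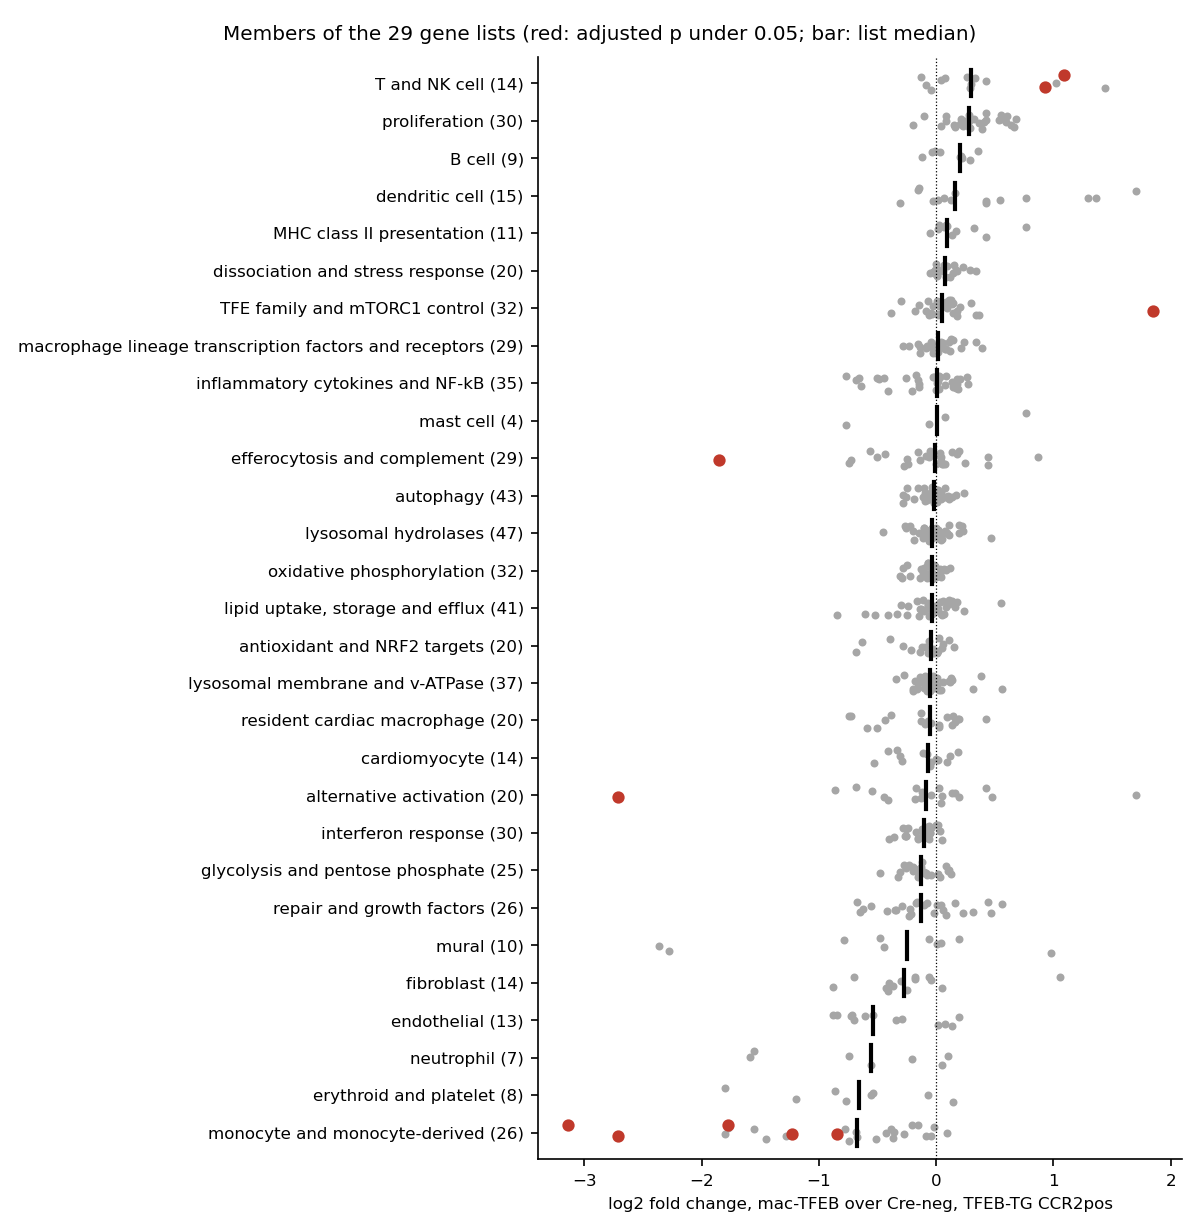
Log2 fold changes of mac-TFEB over Cre-neg for the measured members of 29 gene lists, with the number of members in brackets; red points were called, grey points were not, and black bars are list medians. The monocyte list has the lowest median (-0.68) with 5 called genes below 0, closely followed by the erythroid and platelet list (-0.66, 0 called). The lysosome and autophagy lists centre near 0.

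Markers of other cell types were measured as well. Fibroblast genes summed to 616 to 908 CPM in mac-TFEB and 727 to 1269 CPM in Cre-neg libraries, with 12 of 14 changes below 0. Endothelial genes summed to 56.4 to 156 CPM in mac-TFEB and 48.4 to 318 CPM in Cre-neg libraries, with 9 of 13 below 0, and mural genes to 17.99 to 42.8 CPM in mac-TFEB and 15.4 to 129 CPM in Cre-neg libraries, with 6 of 10 below 0. Neutrophil genes summed to 108 to 135 CPM in mac-TFEB and 115 to 150 CPM in Cre-neg libraries, and 5 of 7 lay below 0. The median changes were -0.27 for fibroblast, -0.54 for endothelial, -0.25 for mural and -0.56 for neutrophil genes. Dendritic cell genes summed to 582, 575, 400 and 442 CPM in mac-TFEB libraries 1 to 4, with 0 of 15 called. The sums in Cre-neg libraries 1 to 4 were lower in each pair, at 520, 482, 355 and 352 CPM. In pairs 1 and 3 that gap was no wider than that of Cd209a alone. Cd209a had 141 and 77.0 CPM in mac-TFEB libraries 1 and 3, against 78.7 and 19.99 CPM in Cre-neg libraries 1 and 3. The other members together were thus not higher in mac-TFEB in those 2 pairs. The defining dendritic cell genes Zbtb46 and Clec9a stayed at most at 3.50 and 1.46 CPM in all 8 libraries. No gene was called in the lists of cardiomyocyte, B cell, mast cell or erythroid and platelet genes, whose median changes were -0.07, 0.21, 0.00 and -0.66. In these lists and the dendritic cell list, 0 called is near the 0.203% over all genes and is no result about them. Of the erythroid and platelet genes 7 of 8 lay below 0. The lowest change was that of Hbb-bt, which averaged 0.273 CPM in mac-TFEB and 0.965 CPM in Cre-neg libraries. The part of other cell types in the called genes was not tested.

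The TFEB-wt mice answer which of these changes also appear with Cre where there is no TFEB cassette. The 2 comparisons share no library. In TFEB-wt CCR2pos cells 134 genes were called between CX3CR1-Cre and Cre-neg (1.05% of those tested), 83 higher (0.649%) and 51 lower (0.399%). Between 59 and 139 were called when 1 of the 10 libraries was left out, with 59 without CX3CR1-Cre library 5, 65 without Cre-neg library 5, 74 and 75 without Cre-neg libraries 3 and 1, and 80 and 89 without CX3CR1-Cre libraries 3 and 1. The 2 sets had 17 genes in common, which is 65.4% of the 26 and 12.7% of the 134, all changed in the same direction. Of the 134, 132 had the same sign in TFEB-TG (98.5%, against 59.6% of all genes). Their median change in TFEB-TG was 0.21 for those higher and -0.78 for those lower in TFEB-wt, where their own medians were 0.53 and -1.36. All 5 called monocyte genes were among the 17: Ly6c2 changed by -3.14 ± 0.56 in TFEB-TG and by -2.66 ± 0.49 in TFEB-wt, Chil3 by -2.71 ± 0.46 and -2.51 ± 0.44, Plac8 by -1.78 ± 0.32 and -2.12 ± 0.29, Thbs1 by -1.23 ± 0.24 and -1.50 ± 0.22, and Ms4a4c by -0.84 ± 0.16 and -0.77 ± 0.14. Duoxa2 (4.86 ± 0.52 and 4.61 ± 0.45), Cadm1 (1.18 ± 0.17 and 1.09 ± 0.15) and Lilra5 (0.81 ± 0.14 and 1.44 ± 0.13) were higher with Cre in both genotypes.

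There were 9 genes called in TFEB-TG and not in TFEB-wt: Tfeb, Cd4, Cd28, Ctnnd2, H2-M2, C6, Cyp4f18, Slc11a1 and Gpr141. In TFEB-wt Tfeb changed by 0.10 ± 0.26, Cd4 by 0.15 ± 0.15 and Cd28 by -0.26 ± 0.18, the only opposite sign among the 26. The others had the same sign in TFEB-wt without a call, at 0.97 ± 0.28 for Ctnnd2, 1.59 ± 0.55 for H2-M2, -0.96 ± 0.29 for C6, -0.64 ± 0.19 for Gpr141, -0.27 ± 0.11 for Cyp4f18 and -0.11 ± 0.08 for Slc11a1 (adjusted p between 0.0982 and 0.683). Cd4 averaged 44.5 ± 14.2 CPM with CX3CR1-Cre and 40.0 ± 11.6 CPM in Cre-neg cells of TFEB-wt CCR2pos libraries (SD, n = 5 each), against 76.8 ± 17.2 CPM in mac-TFEB and 36.3 ± 8.56 CPM in Cre-neg cells of TFEB-TG (SD, n = 4 each). The difference between the 2 genotypes' changes was tested directly, and no gene passed (0 of 12795, or 0%, with 351 at an unadjusted p under 0.05, and 0 by DESeq2's Wald test and by limma-voom). Tfeb came first, with a difference of 1.75 ± 0.36 (unadjusted p = 3.61e-05, adjusted p = 0.462), then Cd28 with 1.19 ± 0.27 (unadjusted p = 0.000115, adjusted p = 0.685) and Cd4 with 0.94 ± 0.22 (unadjusted p = 0.000213, adjusted p = 0.685). Leaving out 1 library gave at most 1 call, Tfeb without CX3CR1-Cre library 2 (adjusted p = 0.0224) or Cd28 without mac-TFEB library 4 (adjusted p = 0.0325). For Ly6c2 the difference was -0.48 ± 0.71, and for Duoxa2 0.25 ± 0.70. Lilra5 had the smaller change in TFEB-TG (difference -0.63 ± 0.19, unadjusted p = 0.00274, adjusted p = 1.00).

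**Figure D4:**
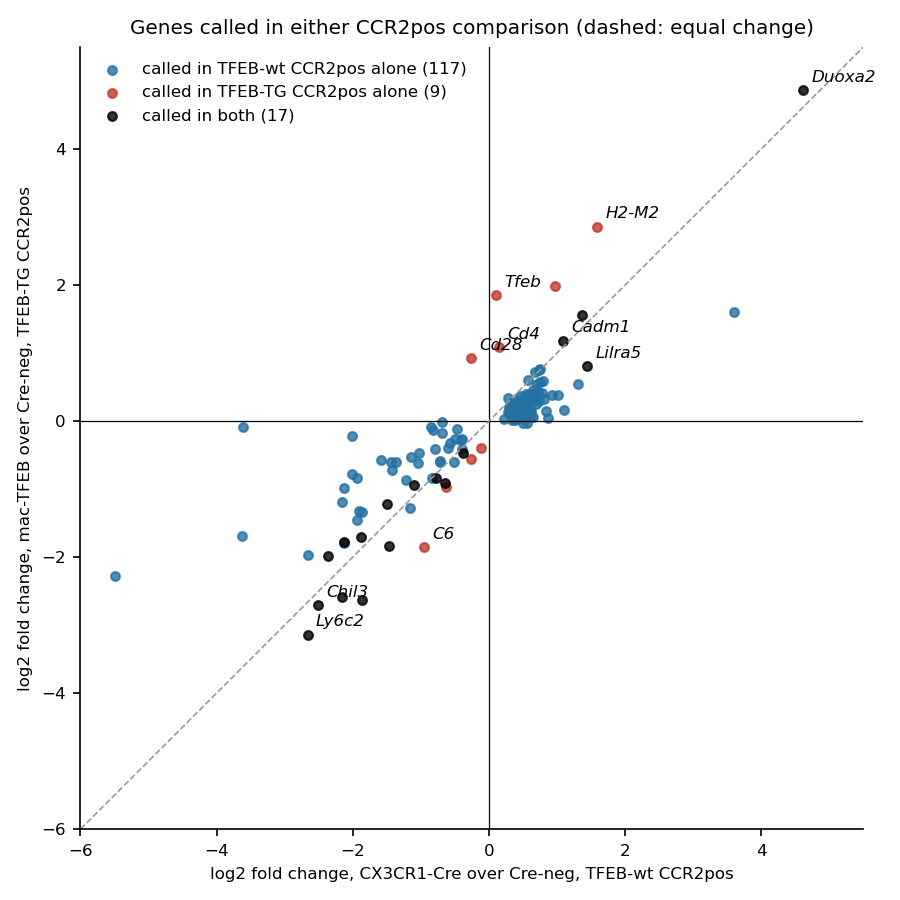
Log2 fold changes of genes called in either CCR2pos comparison, with CX3CR1-Cre over Cre-neg in TFEB-wt on the x axis and mac-TFEB over Cre-neg in TFEB-TG on the y axis; black points were called in both (17), red in TFEB-TG alone (9) and blue in TFEB-wt alone (117). Most points lie in the lower left and upper right corners, and Tfeb, Cd4 and Cd28 stand above the dashed line of equal change near 0 on the x axis.

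In the CCR2neg fraction of the TFEB-TG mice the same contrast gave 301 calls (2.35%), 157 higher (1.23%) and 144 lower (1.13%) in mac-TFEB, and 151 to 303 calls with 1 of its 8 libraries left out (151, 161 and 187 without mac-TFEB library 1, 2 and 3). Of the 26 genes 17 were called there too, all in the same direction (65.4% of the 26, 5.65% of the 301), and 25 had the same sign, as did 56.1% of all genes. The CCR2neg libraries carry the same label numbers 1 to 4 as the CCR2pos libraries, so the 2 comparisons are not independent. Tfeb changed by 1.85 ± 0.25 in CCR2pos and 2.96 ± 0.26 in CCR2neg cells, Cd4 by 1.09 ± 0.17 and 1.58 ± 0.17, Cd28 by 0.93 ± 0.20 and 1.27 ± 0.20, and C6 by -1.85 ± 0.34 and -3.12 ± 0.37. Klrb1b (0.23 ± 0.34), Plac8 (-0.99 ± 0.34), Ms4a4c (-0.31 ± 0.16), Thbd (-0.02 ± 0.10) and Gpr141 (0.10 ± 0.22) were among the 9 not called in CCR2neg cells. Gpr141 was the gene with the opposite sign. Of the 20 resident macrophage genes 8 were called lower in CCR2neg cells, against 1.13% of all genes, and 18 changes lay below 0. In CCR2pos cells 0 were called lower, which is near the 0.133% of all genes, and 11 changes lay below 0. The difference between the fractions was again tested directly, and 0 of 12795 genes passed (0%), with 693 at an unadjusted p under 0.05. DESeq2's Wald test called 14 and limma-voom 0, and leaving out 1 library gave 0 to 5 calls. The smallest adjusted p was that of Padi2 (difference -1.09, adjusted p = 0.0734), which encodes a protein citrullinating enzyme. Among the 26, Gpr141 (difference -1.08, unadjusted p = 0.00148, adjusted p = 0.429) and Tfeb (difference -1.11 ± 0.35, unadjusted p = 0.00334, adjusted p = 0.586) had the smallest p-values.

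**Figure D5:**
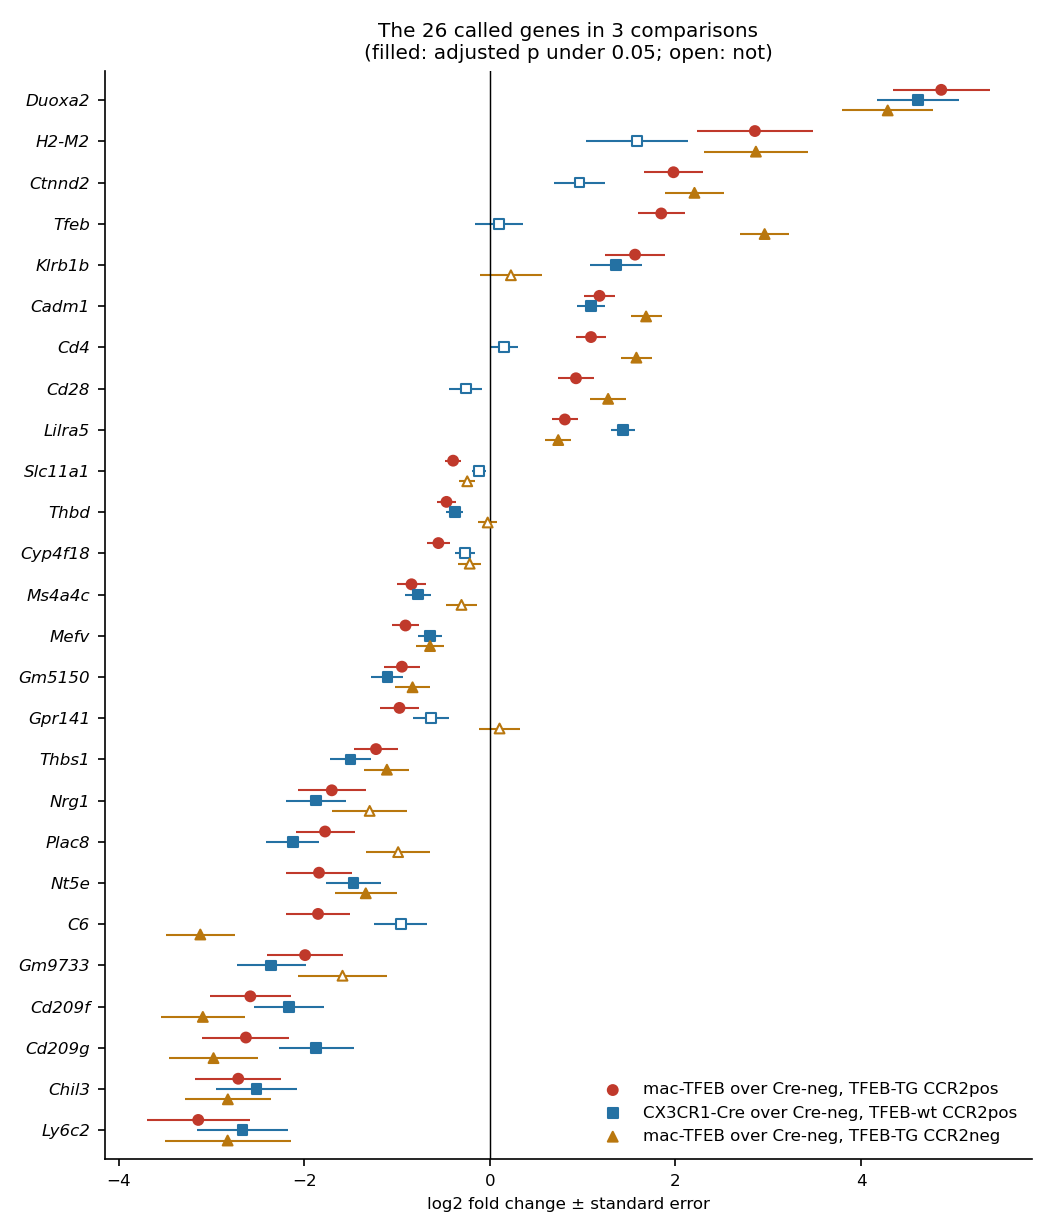
Log2 fold change ± standard error of the 26 called genes in 3 comparisons: mac-TFEB over Cre-neg in TFEB-TG CCR2pos (red circles), CX3CR1-Cre over Cre-neg in TFEB-wt CCR2pos (blue squares) and mac-TFEB over Cre-neg in TFEB-TG CCR2neg (brown triangles); filled markers were called. Tfeb, Cd4 and Cd28 lie near 0 in TFEB-wt (0.10, 0.15 and -0.26), while Duoxa2, Ly6c2 and Chil3 have like values in all 3.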

How the data were processed

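PolyA RNA of sorted cardiac macrophages was sequenced as single reads of 50 bases without strand information, from 1 to 50 ng of RNA and with 12 amplification cycles, per the labels' protocols. The build GRCm38 and the tools Bowtie2, TopHat, TopHat2 2.0.10, HTSeq, edgeR and DESeq come from the submitters' processing notes, which give them no role. The authors deposited 1 table of raw read counts for 12795 genes, filtered in a way the sources used here do not give. CPM and log2 values were computed from the deposited counts, and a prior count of 2 entered log2 differences within pairs.

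Testing used the quasi-likelihood F-test of edgeR 4.0.16 under R 4.3.3 (TMM scaling, no further filter) in 1 fit of all 36 libraries, with 8 group means and the label number within genotype as a block (9 levels, 21 residual degrees of freedom). Standard errors were derived from each log2 fold change and its F value. The labels do not say what a number shares. Numbers were taken to pair libraries because the comparison is defined by them and because deviations from group means correlated at 0.333 to 0.475 within the 4 numbers and at -0.326 to 0.229 between numbers. Deviations cancel out within a group, so the values between numbers are tied to those within and add no separate support. The 12 pairs of libraries within a group were all distinct (chi-square over its degrees of freedom, 21.8 to 63.6), and counting error is small beside this spread. On simulated counts for the 12795 genes the test recovered 97 of 100 genes changed 2-fold and 100 of 100 changed 4-fold, with 11 false calls. The changed genes were drawn only from those at a mean of at least 10 CPM, and counts followed the fitted means and spread. The simulation therefore does not cover genes at lower levels and does not show that a gene without a call was unchanged.

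The comparison, the 29 gene lists (639 of 671 genes measured) and the rule for named genes were chosen with earlier results of these data known. The rule takes Tfeb, Cx3cr1 and Ccr2, up to 15 called genes in each direction, by size of change, at a mean of at least 10 CPM and without unnamed models, the largest 8 each way in the tests of differences, and up to 4 members per list by unadjusted p. Lists are described by counts and medians with no set test. Positions and exon overlaps are GENCODE vM21's and promoters RefSeq's (GRCm38.p6), matched by symbol. Alternatives were no block, DESeq2 size factors, 2 filters (1 CPM in 9 libraries, filterByExpr), DESeq2 1.42.0's Wald test, limma 3.58.1 voom, a fit to 8 libraries, and leaving out libraries.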

Additional observations from a re-analysis of the deposited data

Results flagged for a closer look

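Within groups of 4 libraries, 82 sets of values were screened for 1 library far from the other 3 (the called genes, Cx3cr1, Ccr2 and the summed marker lists, in both groups). In 5 sets 1 library stood apart, where chance alone gives about 1 in 20. Nrg1 was at 19.9 CPM in Cre-neg library 4, against 7.77 CPM in the next Cre-neg library. Summed mural cell genes were highest in number 1 of both groups, at 42.8 CPM in mac-TFEB library 1 with 19.0 CPM next, and at 129 CPM in Cre-neg library 1 with 33.2 CPM next. Summed cardiomyocyte genes reached 132 CPM in mac-TFEB library 3, with 106 CPM next, and summed neutrophil genes 135 CPM in the same library, with 111 CPM next.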

How the results depend on the processing

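Beside the values given in the report, counts moved as follows. Without the replicate block, 2 genes were higher (Duoxa2 and Ctnnd2) and 0 lower in mac-TFEB, 1 gene was called in TFEB-wt CCR2pos and 20 in TFEB-TG CCR2neg. DESeq2's Wald test called 16 higher and 24 lower, 256 in TFEB-wt, 461 in CCR2neg and 14 for the difference between fractions. A fit to the 8 libraries alone called 36 higher and 80 lower. Leaving out 1 library gave 5 to 10 higher and 2 to 14 lower, 59 to 139 in TFEB-wt, 151 to 303 in CCR2neg, 0 to 1 for the difference by cassette and 0 to 5 for that by fraction. Leaving out both libraries of a number gave 5 to 7 higher and 0 to 11 lower (3, 0, 11 and 7 lower without numbers 1 to 4). DESeq2 size factors and both filters kept all 26 calls, and limma-voom shared 23 of its 28. No setting turned the direction of any of the 80 genes followed. Apart from Tfeb, Cx3cr1 and Ccr2, these were taken because they were called or were named genes with an unadjusted p under 0.05. They were thus chosen for their change in the same libraries, and the kept direction is no separate support. The cause of the shifts in the counts of calls was not tested. With 4 pairs the median standard error over all genes was 0.18, and a change that missed the threshold may be one that this depth and spread could not show.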
